A study of Mus musculus and Heterocephalus glaber with 4 samples.

Results

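The sites described are the broad stretches of open chromatin that mouse skin fibroblasts showed with and without SV40 large T antigen. A site was counted when an autosomal peak of the control list was 2000 bp or wider and overlapped, by 1 bp or more, a peak of the large T list that was also 2000 bp or wider. Of the 72924 autosomal control peaks, 8052 met this rule, which is 11.0% of them. They overlapped 8068 broad large T peaks, 13.1% of the 61625 autosomal large T peaks. Because widths and overlap chose the sites, their number and widths are a description of the selection. Scores belong to the same peaks and are given as a description too.

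Both libraries were ATAC-seq libraries, in which a transposase cuts and tags accessible DNA, made from cultured adult skin fibroblasts of the mouse. The control group was 1 library of cells labelled as control, and the large T group was 1 library of cells that had received SV40 large T antigen, an oncoprotein known to inactivate p53 and the retinoblastoma family. Both were labelled passage 16 and shared their culture conditions of 37 °C, 15% serum, 3% oxygen and 5% CO2, with 50000 cells taken per reaction. The labels do not name the strain, the age or number of the animals, the vector, or whether the large T cells were a clone. With 1 library per group no value has a replicate error, no difference was tested, and no p-value is given. Read depth is unknown, and peak number and peak width can both depend on it. The intervals given are exact 95% binomial intervals over peaks, which reflect counting error alone and assume that peaks are independent, although neighbours may not be.

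In the genome of most cell types an open site is a short gap between nucleosomes at a promoter or an enhancer. Wider accessible stretches are known at CpG island promoters, where nucleosomes are depleted over a longer distance, and at groups of closely spaced enhancers that a peak caller joins into 1 interval. Reads that pile up over repeats can also give wide intervals. Which of these each site belongs to was not examined, since positions are in mm9 and no gene table or genome of that build was used here. The fibroblast identity of the cells rests on the labels for the same reason.

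Broad control sites were rarely lost altogether but were often called narrower in large T cells. Of the 13376 autosomal control peaks of 2 kb or more, which make up 18.3% of that list, 8052 (60.2%, 59.4 to 61.0) had a broad large T partner. A further 4918 (36.8%, 35.9 to 37.6) overlapped large T peaks that were all under 2 kb, and 406 (3.04%, 2.75 to 3.34) overlapped no large T peak. In the other direction, 8068 of the 9438 broad large T peaks (85.5%, 84.8 to 86.2) had a broad control partner, 1118 (11.8%) overlapped only control peaks under 2 kb, and 252 (2.67%) overlapped none. The broad large T peaks make up 15.3% of their list. The shares of 60.2% and 85.5% rest on nearly the same overlaps, 8052 and 8068 peaks, set against totals of 13376 and 9438. Their difference thus follows from these totals. The lower number of broad large T peaks also limits how many broad control peaks could have a broad partner. Any overlap with the other list was found for 71.4% of all autosomal control peaks and for 85.2% of all autosomal large T peaks. The sites broad in both lists covered 24.8 Mb in control cells and 22.4 Mb in large T cells. That is 23.2% and 26.5% of the sequence under all autosomal peaks of the respective list.

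The comparison set was the 37904 control peaks under 2 kb whose large T partners were all under 2 kb, called narrow shared peaks from here on. Nearly every broad site faced a single large T peak. It did so at 7933 of 8052 sites, while 119 sites (1.48%) overlapped 2 large T peaks and none overlapped more. Among narrow shared peaks 122 (0.322%) overlapped 2 or more. Pairing each site with the large T peak of longest overlap, both peaks being broad, gave 8045 pairs, and 37854 pairs of narrow shared peaks.

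The width limit cuts through a continuous distribution. The sites just inside it were 2001 bp wide in control cells, on chromosome 15 at 88581039 to 88583039 (2084 bp in large T cells), on chromosome 17 at 5568770 to 5570770 (2061 bp) and on chromosome 3 at 32369924 to 32371924 (2154 bp). Just outside it on the control side lay a peak of 1999 bp on chromosome 3 at 158223667 to 158225665, although its large T partner measured 3611 bp. Just outside on the large T side lay a control peak of 2044 bp on chromosome 9 at 65756017 to 65758060, whose partner measured 1999 bp. At 1101 of the sites at least 1 of the widths was under 2100 bp. Another 824 broad control peaks missed the rule because their widest partner measured 1900 to 1999 bp, and 290 control peaks of 1900 to 1999 bp missed it although their partner was broad.

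Every autosome carried such sites, and chromosome 8 carried the most. It held 657 of them, against 621 on chromosome 2, the next in order, and 228 on chromosome 19, the lowest. Per Mb, with the length measured up to the final peak end, chromosome 8 had 5.00 sites. Chromosome 7 followed with 3.74, the median autosome had 3.42, and chromosomes 13 and 14 were lowest with 2.45 and 2.15. The densest autosome thus stood at 2.32 times the sparsest. The order was not that of narrow shared peaks. Narrow shared peaks ran from 12.9 per Mb on chromosome 14 to 18.8 on chromosome 11, a ratio of 1.46, and chromosome 8 was in place 11 of 19 with 15.0. Across the 19 autosomes the Spearman correlation between the densities of broad sites and of narrow shared peaks was 0.35, given as a description of chromosomes that share both libraries. Between the number of broad sites and the number of all control peaks, which include them, it was 0.84. Both of these numbers also depend on chromosome length.

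**Figure D1:**
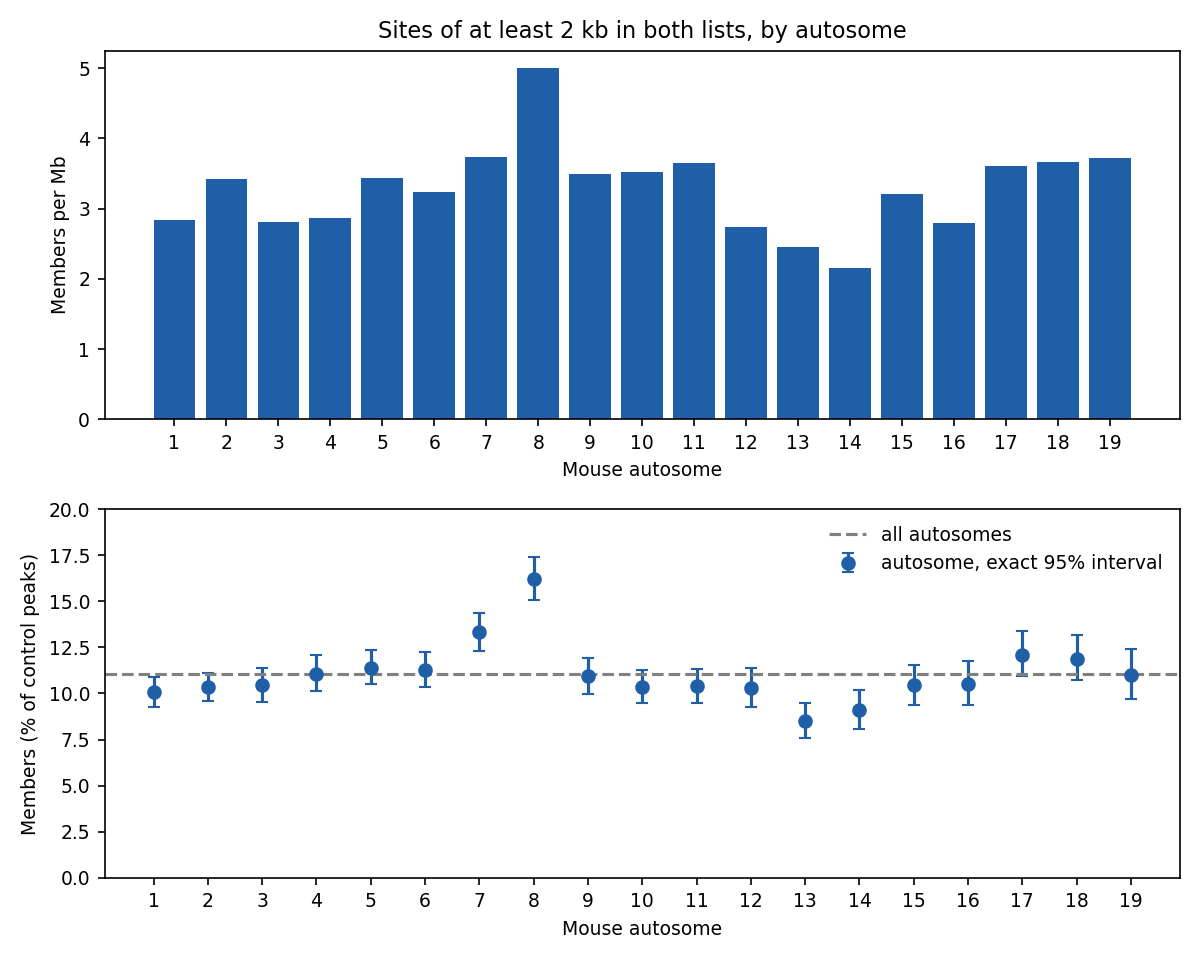
Broad sites by mouse autosome, as sites per Mb (bars) and as a percentage of the autosome's control peaks (points with exact 95% intervals, counting error only; the dashed line is the share over all autosomes). Chromosome 8 stands highest in both panels with 5.00 sites per Mb and 16.2% of control peaks, and chromosomes 13 and 14 are lowest.

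As a share of the control peaks of the same chromosome, broad sites made up 16.2% on chromosome 8 (15.1 to 17.4) and 10.7% on the other autosomes together (10.5 to 11.0). Chromosome 7 was next with 13.3% (12.3 to 14.4). Both intervals lay above the share over all autosomes, and those of chromosomes 1, 13 and 14 lay below it, with 10.1%, 8.51% and 9.12%. The other 14 intervals included it. If peaks were independent, 0.95 of 19 intervals would exclude it by counting error. The share over all autosomes includes chromosome 8 itself. Set against the 10.7% of the other autosomes, the interval of chromosome 1 (9.29 to 10.9) includes the share. That of chromosome 17 (10.9 to 13.4) then lies above it. Chromosome 8 stood first in either list taken alone. Peaks of 2 kb or more were 23.8% of its control peaks and 21.5% of its large T peaks, against 21.0% on chromosome 10, the next in the control list, and 18.9% on chromosome 7, the next in the large T list. The median width over all peaks of chromosome 8 was also the highest of the autosomes, at 1320 bp in control and 1307 bp in large T cells, against medians over autosomes of 1230 and 1151 bp. Copy number and base composition of the chromosomes were not examined, and their part in these values was not tested.

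The share on chromosome 8 was above that of the other autosomes in every score class, although in the lowest the intervals touched. When control peaks were split into 5 classes by score, each holding 20% of the list, the broad sites were 46.0% of the chromosome 8 peaks in the highest class and 34.8% of those on the other autosomes. In the class below they were 20.4% against 12.5%, in the middle class 8.24% against 4.12%, and in the next 3.80% against 1.58%. In the lowest class they were 1.76% (0.964 to 2.93) against 0.850% (0.704 to 1.02), where chromosome 18 stood above chromosome 8 with 2.13%. In the 4 higher classes chromosome 8 ranked first. Along the chromosome, 12 of 14 windows of 10 Mb were above the 10.7% of the other autosomes. The intervals of some of them included that share, as from 10 to 20 Mb (14.0%, 10.5 to 18.1) and from 50 to 60 Mb (11.6%, 5.92 to 19.8). The highest of the 12 was the window from 70 to 80 Mb with 81 sites among 365 control peaks (22.2%). It was in place 2 of the 252 autosomal windows that held 50 or more control peaks. Place 1 was on chromosome 7, from 10 to 20 Mb, with 23.0%. The window from 60 to 70 Mb had 22 among 216 (10.2%) and the last, from 130 Mb, had 6 among 60 (10.0%).

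Chromosomes also differed in how often a broad control peak had a broad large T partner. This share is limited by the number of broad large T peaks on the chromosome, so it partly restates the counts of broad peaks in each list. On chromosomes 4 and 3 the share of broad control peaks with a broad large T partner was 69.0% (65.3 to 72.6) and 68.3% (64.6 to 71.8), and on chromosome 8 it was 68.1% (65.0 to 71.0). On chromosome 10 it was 49.2% (45.9 to 52.5), on chromosome 11 52.5% (49.1 to 55.9) and on chromosome 2 53.3% (50.3 to 56.2). Chromosome 10 was thus second in broad control peaks, with 21.0%, but had 14.6% broad large T peaks, slightly below the median autosome at 14.8%. The width ratio of paired sites followed the same order at its ends. The median large T width was 0.98 of the control width on chromosome 4 and 0.86 on chromosome 10.

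With all autosomes pooled, the broad sites became somewhat more frequent toward the distal end. Mouse autosomes have their centromere at the start of the numbering. When each chromosome was cut into 10 equal parts, in the first 10.6% of control peaks were broad sites (9.76 to 11.6), in the fourth, where the share was lowest, 9.75% (9.08 to 10.5), and in the last 2 they were 12.6% (11.9 to 13.3) and 12.3% (11.6 to 13.0). The increase was not even, since the second part had 11.7% (10.9 to 12.5). Single chromosomes were not compared in this way and can differ from the pooled values. The windows from 0 to 10 Mb had 21.7% on chromosome 7 and 20.7% on chromosome 19. Near the distal end of chromosome 4, the window from 150 Mb had 20.6%.

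Broad sites lay far apart on the whole. The gap between neighbouring sites had a median of 98.2 kb, with quartiles of 35.7 and 280 kb, and 5% of gaps were shorter than 6.32 kb. Narrow shared peaks, which are more numerous, had a median gap of 26.9 kb, with quartiles of 11.3 and 59.1 kb. Scaled by the mean gap of each set, 295 and 62.3 kb, the median was 0.33 of the mean for broad sites and 0.43 for narrow shared peaks. Gaps under 10% of the mean made up 21.7% of the gaps between broad sites and 12.4% of those between narrow shared peaks. The coefficient of variation of the gaps ran the other way, at 2.07 for broad sites and 2.92 for narrow shared peaks, so short gaps were relatively more frequent among broad sites while the spread of all gaps was relatively larger among narrow ones. The longest stretch without a broad site measured 12.0 Mb.

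Measures of unevenness over windows of 1 Mb disagreed on which set was more uneven. The mean was 3.25 broad sites and 15.3 narrow shared peaks per window, and all but the last of these measures depend on that mean. Broad sites were absent from 633 of 2481 windows (25.5%), and the fullest 10% of windows held 32.8% of them. For narrow shared peaks 258 windows (10.4%) were empty and the fullest 10% held 21.7%. The variance over the mean was 3.56 for broad sites and 7.38 for narrow shared peaks. The variance beyond that of independent counts, divided by the squared mean, was 0.79 for broad sites and 0.42 for narrow shared peaks. The fullest window lay on chromosome 8 from 73 to 74 Mb and held 26 broad sites among 62 control peaks. Windows on chromosome 10 from 80 to 81 Mb and from 79 to 80 Mb held 22 and 20 sites, and the window on chromosome 13 from 23 to 24 Mb held 21 among 45 control peaks.

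The immediate neighbour of a broad site was more often broad than the neighbour of a narrow shared peak. In this comparison each broad or narrow shared peak was set against the next peak of either class on its chromosome, which does not require equal numbers. Broad sites made up 17.5% of both classes together. They made up 23.0% of the neighbours of broad sites and 16.3% of the neighbours of narrow shared peaks. The contrast was widest at short range. Where less than 2 kb separated the neighbours, 45.3% of the neighbours of broad sites were broad and 9.36% of those of narrow shared peaks, over 1451 neighbouring pairs of which 96 joined 2 broad sites. From 2 to 5 kb the shares were 29.9% and 18.8%, and from 5 to 10 kb they were 22.7% and 17.6%. From 10 to 25 kb they were 22.5% and 17.6%, and from 25 to 50 kb 20.6% and 17.2%. The contrast did not fade steadily, since from 50 to 100 kb the shares were 22.8% and 14.8%, and beyond 100 kb they were 16.2% and 11.4%. Without chromosome 8, a choice made after seeing the data, the shares over all distances were 22.1% and 16.0%.

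**Figure D2:**
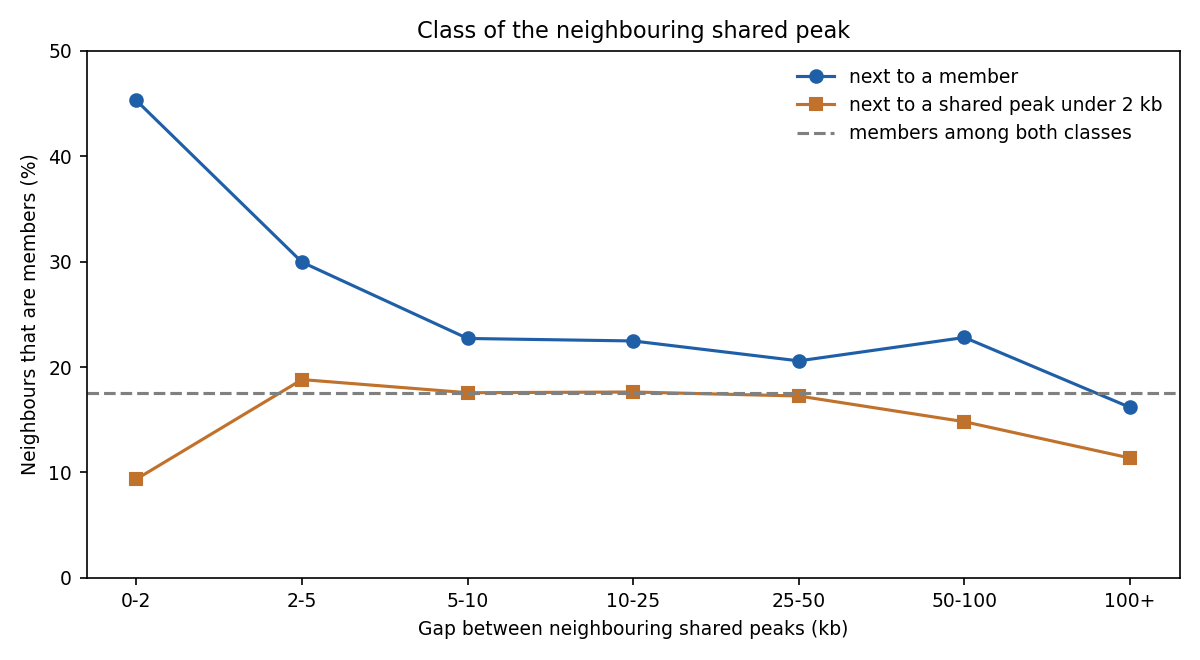
Share of neighbouring shared peaks that are broad sites (y axis, %) by the gap between the neighbours (x axis, kb), for neighbours of broad sites (circles) and of narrow shared peaks (squares); the dashed line is the 17.5% of broad sites among both classes. The curves are farthest apart under 2 kb, at 45.3% and 9.36%, and neighbours of broad sites are more often broad in every gap class.

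The number of other open sites nearby differed little. Within 50 kb of the centre of a broad site lay a median of 4 other control peaks that were not broad in both lists (mean 4.27), and around a narrow shared peak also 4 (mean 4.07). Of these neighbouring peaks, 27.5% and 28.9% had no large T counterpart. Over all autosomal control peaks 71.4% overlapped a large T peak, so both shares were near that of the whole list. The closest control peak of any class was 7.54 kb away from a broad site and 7.89 kb away from a narrow shared peak at the median.

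Most broad sites stood alone, and a minority formed chains. When sites separated by 25 kb or less were joined, 5472 of the 8052 (68.0%) remained single, 795 chains held 2 sites, and 285 chains of 3 or more held 990 sites (12.3%, 11.6 to 13.0). Among narrow shared peaks, whose gaps are shorter because they are more numerous, 47.3% were in such chains and 29.4% were single. With 10 or 50 kb in place of 25 kb the share of broad sites in chains of 3 or more was 3.40% or 27.0%. Restricted to the higher 50% of each list by score, it was 7.83%. Chromosome 8 carried 43 of the 285 chains, and 24.8% of its broad sites were in chains of 3 or more. Chromosome 7 followed with 17.5%, and chromosome 18 had the lowest share with 6.01%. Of the 20 chains with 5 or more sites, 6 lay on chromosome 8.

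The longest chain held 11 broad sites over 153 kb of chromosome 8 (73275698 to 73428915). Its sites were 2109 to 6116 bp wide, their ranks in the control list ran from 355 to 71419 of 75120, and together they covered 23.2% of the span. Between them lay 7 other control peaks, of which 1 had no large T counterpart. A chain on chromosome 6 (82962976 to 83088994) held 9 sites of 2221 to 5173 bp over 126 kb. The chain on chromosome 11 (48611664 to 48686697) was the most compact of the 5 longest, with 8 sites of 2270 to 6848 bp over 75.0 kb and 42.6% of the span inside them. It held 1 other control peak. The chains on chromosome 8 (107776731 to 107874865) and chromosome 4 (154506884 to 154625399) held 8 sites each, over 98.1 and 119 kb. The chain on chromosome 4 was made of sites no wider than 3497 bp.

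Sites in chains were slightly wider and lower in score than single ones. Single sites had a median width of 2778.5 bp and a median score percentile of 88.2 within the control list, where 100 is the highest score. Sites in chains of 2 had 2861.5 bp and 82.9, and sites in chains of 3 or more had 2973 bp and 79.0. The width ratio between the lists was close in all of them, at 0.93 in each of these groups.

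At the other end, some broad sites were several Mb from the next. The most isolated lay on chromosome 1 at 113759859 to 113762479, with 5065 kb to the nearest other broad site. It was 2621 bp wide in control and 2161 bp in large T cells and ranked 150 and 33 in the respective lists. The next were on chromosome 14 at 94287661 to 94291137 (4275 kb) and on chromosome 12 at 92825403 to 92830053 (3896 kb). Those on chromosome 3 at 45179434 to 45182884 and at 14578047 to 14580307 had 3631 and 3373 kb on their nearer side.

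Broad sites were mostly among the higher scores, but the widest were not. The scores are the authors', of unstated definition, and were used as ranks within 1 list. Of the broad sites, 3210 lay in the top 10% of control scores, where they were 44.3% of peaks (43.2 to 45.5). In the lowest 10% they were 48 of 7274 peaks (0.660%). The median percentile of the broad sites was 86.3 in the control list and 84.3 in the large T list, against 55.2 and 47.9 for narrow shared peaks.

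Among the broad sites the score fell as width increased beyond about 3 kb. Sites of 2.5 to 3 kb had a median percentile of 89.7 in the control list, those of 4 to 5 kb 80.5, those of 5 to 6 kb 71.8, and the 147 sites of 6 kb or more 44.1 (quartiles 28.7 and 59.6). Of the latter, 1 was in the top 10% of scores and 58.5% were in the lower 50%. The Spearman correlation of score with width was -0.15 over broad sites in control cells and -0.10 in large T cells, and 0.60 and 0.66 over narrow shared peaks, a description of peaks that share a library. The same turn was seen in each list on its own, over all autosomal peaks. In the control list the median percentile rose from 12.8 for peaks under 750 bp to 85.9 at 2.5 to 3 kb and was 42.8 for the 155 peaks of 6 kb or more. In the large T list it rose from 14.4 to 84.4 and was 45.1 for the 73 widest. The 100 widest and the 100 highest-scoring broad sites had no site in common. Their median widths were 6973.5 and 2689 bp.

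**Figure D3:**
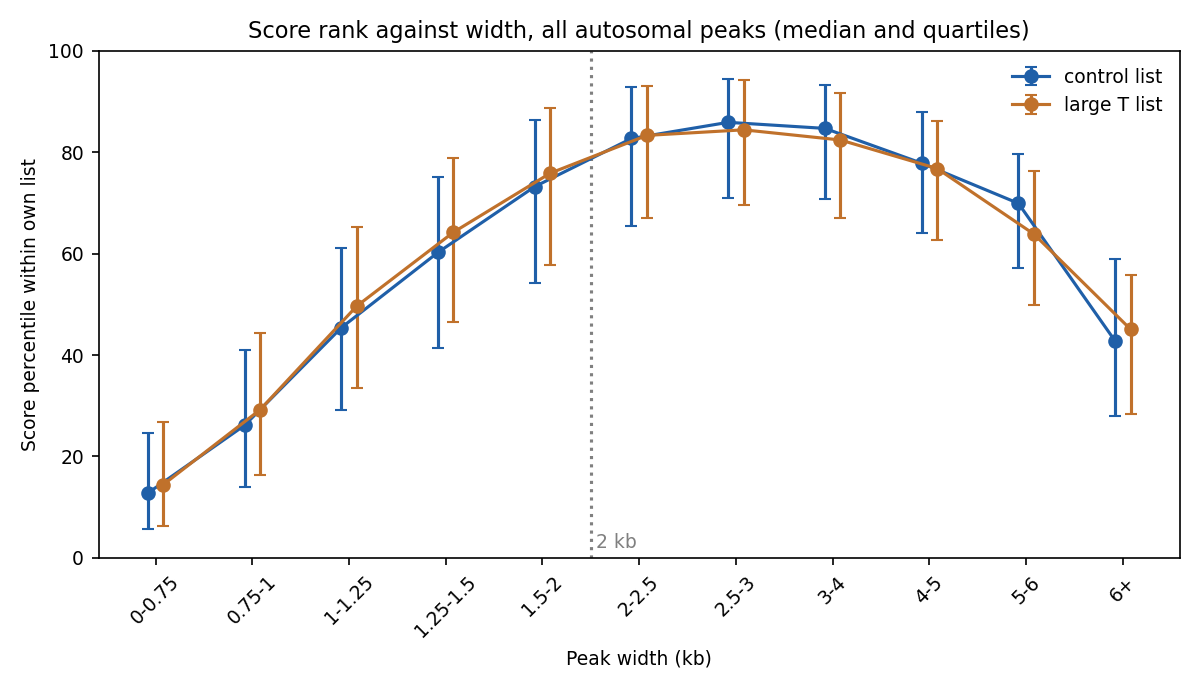
Score percentile within the own list (y axis) by peak width (x axis, kb) for all autosomal peaks of the control and the large T list; points are medians and bars are quartiles, and the dotted line marks 2 kb. In both lists the median is highest at 2.5 to 3 kb (85.9 and 84.4) and falls to 42.8 and 45.1 for peaks of 6 kb or more.

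The widest site lay on chromosome 12 at 109541402 to 109549644. It was 8243 bp wide in control cells, where it ranked 58017 of 75120, and 7456 bp in large T cells, where it ranked 35788 of 63258. The sites on chromosome 17 at 71195325 to 71203561 (8237 bp) and on chromosome 6 at 28367864 to 28376084 (8221 bp) ranked 73708 and 73741, close to the lowest score kept in the control list, and 20881 and 35008 in the large T list. The others of the 10 widest lay on chromosome 14 (51707217 to 51715351 and 22803769 to 22811431), chromosome 2 (13493253 to 13501070), chromosome 6 (42297921 to 42305727), chromosome 16 (37784020 to 37791767), chromosome 4 (63058883 to 63066623) and chromosome 18. All 10 were in the lower 50% of control scores and were narrower in large T cells, at 4102 to 7456 bp. They were picked by control width, which by itself favours sites whose other width is smaller.

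The highest-scoring broad sites were not among the 100 widest. The first was on chromosome 18 and is not described by position. The peak on chromosome 12 at 119538025 to 119541688 was 3664 bp wide, with rank 5 in the control and rank 3 in the large T list. That on chromosome 16 at 42874170 to 42877077 was 2908 bp wide and ranked 6 in both. On chromosome 7 the site at 112547217 to 112549519 was 2303 bp wide, with ranks 8 and 82. The site on chromosome 3 at 75359467 to 75362075 was 2609 bp wide and ranked 13 and 8. These 4 sites had no other broad site within 77.9 kb.

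Paired broad sites were mostly narrower in large T cells. The median width was 2816 bp in control and 2543 bp in large T cells, and 5969 of 8045 pairs (74.2%) were narrower in large T cells while 2065 were wider. The median ratio of large T to control width was 0.93, with quartiles of 0.84 and 1.00. Narrow shared peaks had a median ratio of 0.90 with quartiles of 0.77 and 1.03, and 69.1% were narrower in large T cells. The lower widths in large T cells were thus also found outside the broad sites. Relative to their width, broad sites differed less between lists: 53.6% of broad pairs had a ratio between 0.90 and 1.11, against 34.2% of narrow pairs. In base pairs they differed more, with a median difference of -191 bp (large T minus control) against -120 bp, and 22.7% of broad against 28.9% of narrow pairs within 100 bp of each other. The bases shared by both peaks were 88.4% of the bases under either at the median, against 80.4%. Width order was similar in both sets, with a Spearman correlation of 0.69 over broad pairs and 0.65 over narrow pairs. Both width ranges are cut at 2 kb by the rule, which affects these correlations, the ratios and the shared bases. A broad control peak whose large T width fell under 2 kb left the set, as 4918 did. The closer ratios of broad pairs are therefore in part a description of how they were chosen.

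Both edges contributed to the lower width. At the median the start lay 99 bp and the end 57 bp further inward in large T cells, and the centres were 110 bp apart. At narrow shared peaks these values were 61, 39.5 and 73 bp. Both edges lay inward at 46.1% of broad sites and both outward at 10.0%, against 43.0% and 14.2% of narrow shared peaks. The shifts of the start and of the end were hardly related across sites (Spearman correlation 0.03).

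**Figure D4:**
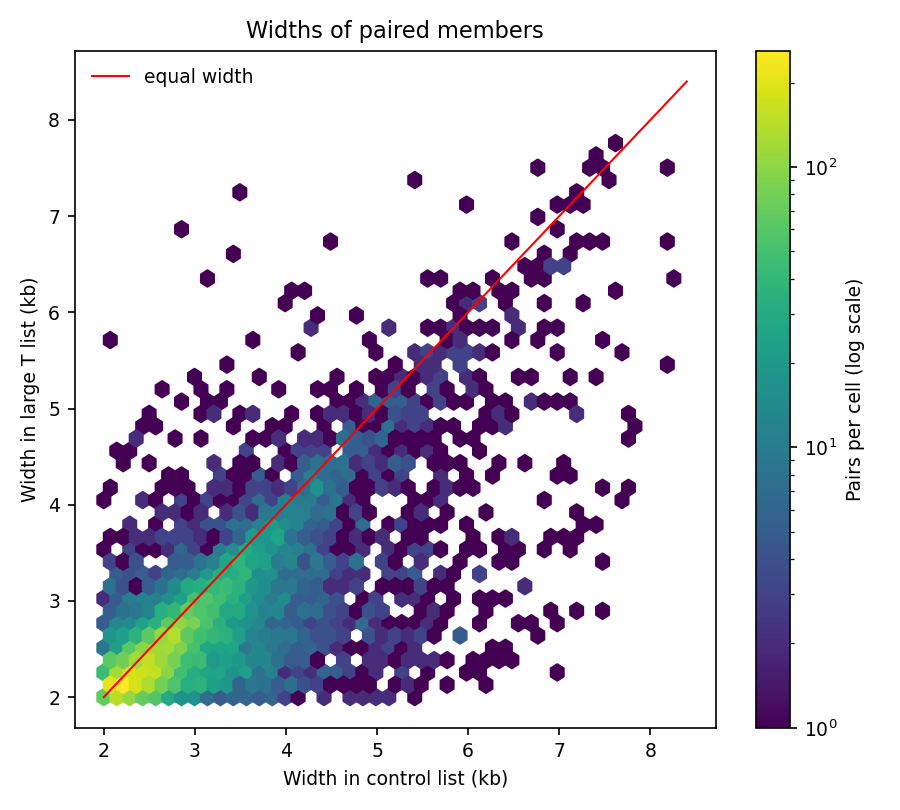
Width of paired broad sites in the control list (x axis, kb) against the large T list (y axis, kb), with the number of pairs per hexagon on a log colour scale and the line of equal width. Most pairs lie close below the line, where 74.2% of sites are narrower in large T cells, and beyond 5 kb of control width pairs spread from the line to well under it, with 33.8% within 0.90 to 1.11 times and 36.8% under 0.67.

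The widest sites varied most in how much of their width was called in large T cells. Of the 432 pairs with a control width of 5 kb or more, 146 (33.8%) had a large T width within the same band of 0.90 to 1.11 times, 122 (28.2%) had 0.67 to 0.90 of it, 159 (36.8%) had under 0.67 of it, and 5 were wider than the band. Of these 159, 33 overlapped 2 large T peaks, so the control interval was divided at these sites, while 126 faced a single shorter peak. Among pairs of 2 to 5 kb in control cells, 54.8% were within the band and 5.11% under 0.67. Of the 196 pairs with a large T width of 5 kb or more, 126 (64.3%) were within the band and 18 (9.18%) were over 1.5 times as wide as in control cells. The rule removes sites whose other width is under 2 kb, so ratios far from 1 can be seen only at wide sites.

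The largest losses of width were on chromosome 1 at 184444456 to 184451494 (7039 bp in control and 2287 bp in large T cells, with 2 large T peaks under it), on chromosome 5 at 93520077 to 93527539 (7463 and 2958 bp), on chromosome 9 at 3013957 to 3020749 (6793 and 2592 bp), on chromosome 15 at 68754084 to 68761035 (6952 and 2758 bp) and on chromosome 18. The site on chromosome 9 lies close to the first position the lists report on that chromosome. The largest gains were on chromosome 3 at 17953437 to 17956351 (2915 and 6830 bp), chromosome 8 at 11311255 to 11314732 (3478 and 7263 bp), chromosome 4 at 88919021 to 88921115 (2095 and 5749 bp), chromosome 1 at 173176267 to 173179344 (3078 and 6385 bp) and chromosome 3 at 45179434 to 45182884 (3451 and 6543 bp). At all 5 gains the site ranked lower within the large T list than within the control list by percentile. On chromosome 4 the fall was only from 30.4 in the control list to 28.6 in the large T list. At the 4 losses given by position the site ranked higher. These directions can follow from the choice of sites by width difference, since very wide peaks scored lower within each list. In the control list the median percentile was 42.8 for peaks of 6000 bp or more and 85.9 at 2500 to 3000 bp. In the large T list these medians were 45.1 and 84.4.

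Scores of broad sites were ordered alike in both lists. Over the 8045 broad pairs the Spearman correlation was 0.88, and over the 37854 narrow pairs it was 0.70, given as a description since the points share 2 libraries. Part of this contrast can follow from the range of scores in each set, so ranks were also compared within 5 classes of control score. For this, all 1 to 1 pairs of shared peaks were ranked together, with percentiles within each list, and each class holds 20% of them. The classes narrow the range but do not equalise it: in the highest, the median control percentile was 92.1 for broad and 88.1 for narrow pairs. The large T rank is also partly set by the selection. Broad sites had to be 2 kb or wider in the large T list and narrow shared peaks under 2 kb there, and peaks of 2 kb or more were 49.5% of the top 10% of large T scores and 1.54% of the lowest 10%. The comparisons of ranks between both sets are therefore descriptions of how they were chosen as well as of the sites. A shift of over 25 percentile points between lists was found at 5.98% of 8041 broad pairs (5.47 to 6.52) and 19.5% of narrow pairs (19.1 to 19.9). In the highest 20% of control scores it was found at 1.01% of 4168 broad pairs (0.727 to 1.36) and 8.17% of 4185 narrow pairs (7.36 to 9.04). In the class below it was 4.23% and 19.2%, and in the middle class 13.5% and 23.7%. The Spearman correlation within a class differed less between both sets than over all pairs in some classes. For broad and narrow pairs it was 0.76 and 0.58 in the highest class and 0.37 and 0.31 in the class below. In the middle class it was 0.21 in both sets. It was 0.29 and 0.16 in the second lowest class and 0.12 and 0.14 in the lowest.

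In the 2 lower classes large shifts were not less frequent at broad sites. In the second lowest class of control scores, 21.7% of 494 broad pairs (18.1 to 25.6) and 18.6% of 9105 narrow pairs (17.8 to 19.4) shifted by over 25 points, intervals that overlap. In the lowest class the shares were 35.3% of 295 (29.8 to 41.0) and 21.7% of 9681 (20.9 to 22.6). The classes were formed on control scores, so that a peak of the lowest class can shift by this much only upward. The median shift in the lowest class was 18.1 points upward at broad sites and 9.22 at narrow shared peaks. In the highest class it was -0.70 points at broad sites and -2.98 at narrow shared peaks.

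**Figure D5:**
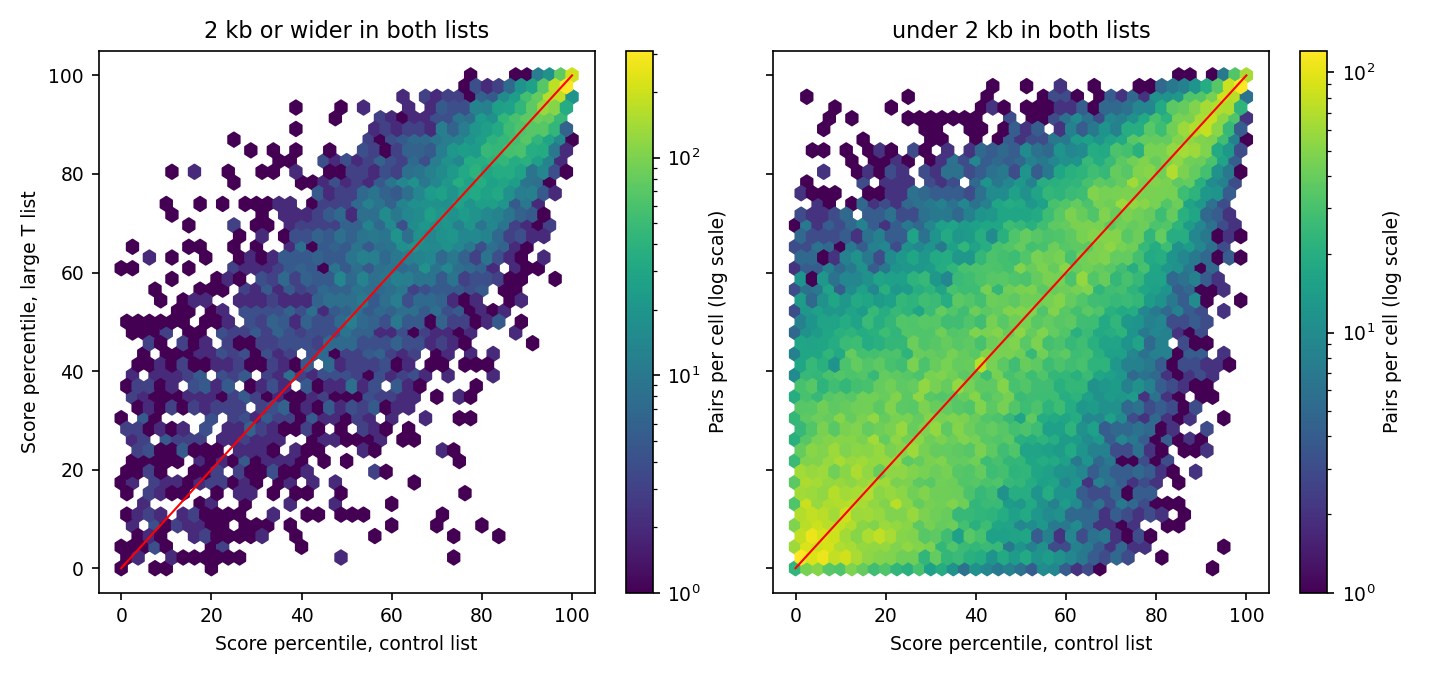
Score percentile of paired peaks in the control list (x axis) and the large T list (y axis) among all paired shared peaks, for broad sites (left) and narrow shared peaks (right), with pairs per hexagon on a log colour scale and the line of equal percentile. Broad sites crowd at the upper end close to the line (Spearman correlation 0.88), and narrow shared peaks spread more widely (0.70).

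The selection also bears on how the ends of the order were kept. Of 3209 broad pairs in the top 10% of control scores, 2459 (76.6%, 75.1 to 78.1) were in the top 10% of large T scores as well. Of 2592 narrow pairs in the same class, 1473 were (56.8%, 54.9 to 58.7). Of pairs in the lower 50% of control scores, 413 of 619 broad pairs (66.7%) and 81.8% of 16404 narrow pairs were also in the lower 50% of large T scores.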

How the data were processed

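For each library the authors deposited 1 list of peaks giving position, name and a score. Peak names begin with MACS, per the files, with no version or settings stated, and the build is mm9, per the submitters' processing notes. The score in the deposited lists has no stated definition and starts at 50.01 (control) and 50.00 (large T). Intervals follow the BED convention in the files and 1-based starts are printed here. Sites, narrow shared peaks, pairs (longest overlap), gaps (end to next start) and chains (25 kb or less) were computed from the lists with scipy 1.17.1, pandas 2.3.3 and numpy 2.4.6 under Python 3.11.15. Sites were counted equally by bedtools 2.31.1, and the functions were tested on simulated lists, where 100% of 3492 planted sites were found. The simulated control peaks were well apart, with at most 1 partner near the centre of each. Divided or closely spaced peaks were thus not part of the simulated overlaps. The members and measures were chosen with earlier results of these data known. Regions named by position were the 10 widest, the 5 highest in score, the 5 longest chains, the 5 most isolated, the 5 largest width differences in each direction and some nearest to the width limit, leaving out positions on chromosome 18. Fullest windows and named chromosomes were picked after their values were seen. Naked mole rat lists were not used. Alternatives changed the width limit, overlap, score range, joining of close peaks, pairing, chaining distance and autosome length.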

Additional observations from a re-analysis of the deposited data

Results flagged for a closer look

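The rule on autosomes leaves out the sex chromosomes, where broad sites were found as well. On the X chromosome 188 control peaks were 2 kb or wider and overlapped a broad large T peak, 8.60% (7.46 to 9.86) of its 2185 control peaks. Their density of 1.13 per Mb was under that of every autosome. Their share of control peaks was not, since chromosome 13 had 8.51%. Of the 317 broad control peaks on X, 59.3% had a broad large T partner. The Y chromosome had 3 such sites among 11 control peaks.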

How the results depend on the processing

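Across 12 alternative settings and 8 results, 47 of 69 comparisons stayed close to the main value (a count within 1.5 times, a share inside its interval, another value within 10%). The exceptions were mostly due to the width limit. With limits of 1500, 2500 and 3000 bp there were 16585, 3903 and 1876 sites, 65.4%, 53.8% and 47.3% of broad control peaks were sites, the median gap was 48.5, 226 and 564 kb, and 27.3%, 5.35% and 1.92% of sites were in chains of 3 or more. The densest autosome had 1.92 times the density of the sparsest at 1500 bp and 2.58 times at 3000 bp. Requiring overlap of 50% of both peaks gave 59.2% of broad control peaks, and leaving out the 1% highest scores gave 58.6%. With the higher 50% of scores the median gap was 119 kb and 7.83% of sites were in chains. Chaining at 10 and 50 kb gave 3.40% and 27.0%. Without chromosome 8, added after seeing the data, the ratio of densest to sparsest autosome was 1.74 and 11.2% of sites were in chains. In all 11 settings that hold chromosome 8 it was the densest autosome. The Spearman correlations and the median width ratio stayed within 10% in every setting run. No replicate could be left out, and no paired analysis was possible because each group has 1 library. Depth behind the peaks is unknown.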
